A study of Homo sapiens with 4 samples.

Results

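The genes described here are 49 genes of DNA replication and of the step from G1 into S phase, chosen by name from a list and found in full among the 28482 genes of the deposited table. They fall into 9 roles: 8 origin licensing factors, 6 subunits of the MCM helicase, 6 factors that activate it, 9 polymerase and primase subunits, 6 clamp and clamp loader subunits, 3 single-strand binding subunits, 3 genes of flap removal, ligation and uracil excision, 4 enzymes of deoxynucleotide synthesis and 4 G1/S regulators. All 49 passed the filter on low counts, which left 13296 genes, with 385 to 17213 counts per gene and library.

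The cells were K562/G01, an imatinib-resistant derivative of K562, a human chronic myeloid leukemia line that carries the BCR-ABL1 fusion kinase, the target of imatinib. The scramble cells had received a lentivirus with a control short hairpin RNA and the knockdown cells a lentivirus with a hairpin against TCF7, which encodes the transcription factor TCF-1 of the Wnt pathway. Each kind was left without imatinib or given it at 1 µM for 48 hours, which gave 4 groups: scramble, TCF7 knockdown, scramble with imatinib and TCF7 knockdown with imatinib. Every group was 1 library of ribosome-depleted total RNA, the labels name 1 lentiviral construct per arm, and values below always follow the order just given.

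DNA replication starts when the origin recognition complex, CDC6 and CDT1 load the ring-shaped helicase of MCM2 to MCM7 onto DNA in G1. CDC45 and the GINS complex then turn the loaded ring into a moving helicase, primase and the polymerases copy the strands, PCNA holds the polymerases on DNA, and ribonucleotide reductase supplies deoxynucleotides. Many of these genes are transcribed together at the end of G1, when cyclin E and its kinase partner release E2F transcription factors from RB1, so their RNA is widely read as a sign of cycling cells.

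Promoter windows of the members were searched for the letters of these regulators, because many of the members are known to be transcribed through E2F factors. RefSeq windows on GRCh38.p14 from 250 bases before to 50 bases after the start were found for 42 of the 49 genes. The E2F letters TTTNNCGC, read on both strands, occurred in 24 of the 42 (57.1%), against 8.23% of the 27305 genes with such a window. CCAAT, the letters bound by the factor NF-Y, sharing at most 1 letter with an E2F match, occurred in 26 (61.9%), against 39.7%. The letters of the cell cycle homology region of mitotic promoters, TTTGAA, occurred in 2 (4.76%), against 18.2%. CTTTGAT or CTTTGTT, which TCF and LEF factors bind, occurred in 4 (9.52%), against 9.2%, and the 4 genes were GINS1, MCM7, MCM10 and RFC3. The 250 bases before the start are printed for MCM6, the member with the largest knockdown change, for the clamp gene PCNA, and for E2F1, which encodes an E2F factor. Capitals mark matches to TTTNNCGC or CCAAT on either strand.
MCM6, chr2:135876444-135876693, minus strand: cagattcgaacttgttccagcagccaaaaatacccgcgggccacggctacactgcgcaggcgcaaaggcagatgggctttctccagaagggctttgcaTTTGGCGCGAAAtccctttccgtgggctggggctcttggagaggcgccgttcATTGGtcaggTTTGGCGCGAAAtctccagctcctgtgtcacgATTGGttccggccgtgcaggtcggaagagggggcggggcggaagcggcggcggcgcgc
PCNA, chr20:5126623-5126872, minus strand: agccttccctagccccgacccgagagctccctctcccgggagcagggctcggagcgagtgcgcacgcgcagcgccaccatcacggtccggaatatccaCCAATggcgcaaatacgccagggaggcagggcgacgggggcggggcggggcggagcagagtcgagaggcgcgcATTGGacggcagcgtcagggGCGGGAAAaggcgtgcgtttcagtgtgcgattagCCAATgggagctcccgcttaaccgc
E2F1, chr20:33686386-33686635, minus strand: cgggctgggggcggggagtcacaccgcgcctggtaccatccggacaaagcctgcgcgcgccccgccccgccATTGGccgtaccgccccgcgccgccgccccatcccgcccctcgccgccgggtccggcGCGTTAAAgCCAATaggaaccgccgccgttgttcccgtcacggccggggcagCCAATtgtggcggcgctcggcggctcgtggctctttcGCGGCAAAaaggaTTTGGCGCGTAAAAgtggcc
The MCM6 window holds 4 E2F matches, which lie as overlapping pairs inside each of 2 identical capital runs, and 2 CCAAT matches. The printed PCNA window holds 1 E2F and 3 CCAAT matches, and that of E2F1 holds 4 and 3. RefSeq gives PCNA a further start, whose 250 bases hold 0 E2F and 2 CCAAT matches and are not printed. Such a match is a run of letters and was not tested as a bound site. The shares of members and of all genes were not matched for base composition, and the printed windows have a GC content of 62.8% to 72.4%. The part of base composition in these shares was not tested.

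Each library held between 30634832 and 34095585 counts. TCF7 had 339, 78, 367 and 117 counts, or 10.2, 2.55, 10.8 and 3.69 CPM, the counts scaled to a common library size. The knockdown libraries thus held 25.5% of the scramble level without imatinib and 35.1% under it, and TCF7 fell (log2 fold change -1.75, SE 0.206, adjusted p = 1.51e-07 by the quasi-likelihood test of edgeR). All 10 listed markers of K562 cells passed the filter, with summed levels of 3620, 3375, 3493 and 3404 CPM. Of 18 listed markers of other cell types, 17 were in the table and 7 passed the filter, with summed levels of 464, 452, 513 and 553 CPM that lay mostly in KRT18, KRT8 and EPCAM. The T cell marker CD3E had 0 counts in 3 of the 4 libraries, and the fibroblast marker COL1A1, with 5, 42, 7 and 32 counts, rose with knockdown. The part of these markers in the results below was not tested.

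Levels between genes were compared on the deposited FPKM values, which are per length and are a score of the authors' making. PCNA had the highest level of all members, at 159, 185, 151 and 164, followed by MCM3 of the helicase at 91.8, 101, 93.8 and 97.8. PCNA stood above every other member in every library. CDC45, which joins the helicase with GINS, had 78.0, 78.5, 77.2 and 78.7, and TYMS, which makes thymidylate, had 76.1, 86.4, 70.7 and 78.4. The ranges of these 2 genes overlapped, so their order is not resolved, and TYMS shares its locus with ENOSF1 and TYMSOS on the opposite strand, whose reads can be told apart only if strand was used in the counting.

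FEN1, the nuclease that trims Okazaki fragments, had 50.6, 51.9, 56.7 and 63.1, PRIM1, the catalytic primase subunit, had 50.4, 53.7, 45.1 and 42.2, and RPA2 of the single-strand binding complex had 45.1, 47.1, 47.7 and 49.8. The range of PRIM1 overlapped those of the other two, and FEN1 lay just above RPA2. FEN1 overlaps FADS2 on its own strand and PRIM1 overlaps NACA likewise, so both levels are uncertain. CDT1 had the highest mean of the licensing factors, at 26.3, 26.3, 35.6 and 43.0, but in both untreated libraries ORC1, ORC3 and CDC6 lay above it. CDC25A, a phosphatase that activates cyclin-dependent kinases, led the G1/S regulators at 20.5, 20.8, 21.1 and 22.1.

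The lowest levels belonged to GINS3, a GINS subunit, at 4.70, 5.13, 4.77 and 5.18, and to E2F1 at 4.79, 5.02, 6.57 and 8.12. RPA3, the smallest subunit of its complex, had 6.41, 8.04, 6.10 and 6.97. ORC6 had the lowest level of the origin recognition complex, at 7.80, 8.62, 7.65 and 6.91, and POLD3, an accessory subunit of polymerase delta, the lowest of the polymerase group, at 7.59, 8.14, 7.55 and 8.09. LIG1, the ligase that seals Okazaki fragments, had 7.38, 7.91, 8.91 and 9.63. Neighbours in this order overlapped in range, so their order is not resolved. In the remaining roles the lowest means were those of RFC5 of the clamp loader (18.1, 20.4, 18.7 and 18.9), whose range overlapped that of RFC2 (16.6, 20.9, 19.6 and 20.2), TK1, the thymidine kinase of cycling cells (22.7, 27.4, 27.9 and 34.0), and MCM5 (25.4, 26.2, 27.8 and 33.3).

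**Figure D1:**
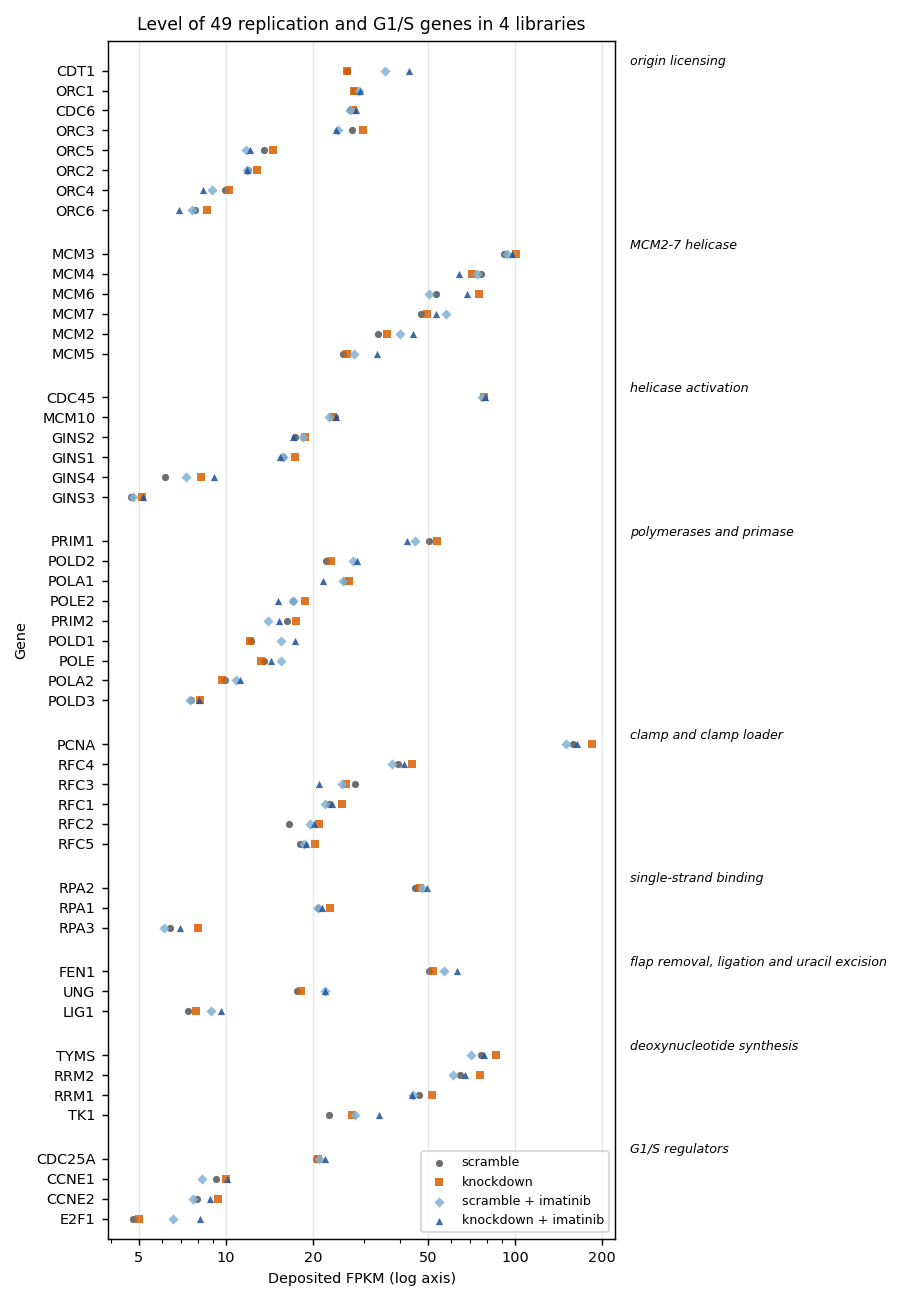
Deposited FPKM of the 49 genes on a log axis, 1 row per gene, grouped by role, with 1 point per library. PCNA lies at the top of the range with a mean of 165 and GINS3 at the bottom with 4.95, and the 4 libraries of a gene lie close together.

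The members varied little between libraries. The ratio of the highest to the lowest CPM ran from 1.02 for CDC45 to 1.70 for E2F1, with a median of 1.23, against 1.32 over all tested genes. The 2 medians were not matched for level: the lowest mean CPM was 15.3 among the members and 0.66 among all tested genes. No member reached 2-fold in any of the 4 single-factor pairs (0 of 49). Their summed level was 5725, 6146, 5846 and 6054 CPM, higher in each knockdown library than in its scramble partner. The untreated knockdown library held the highest value of 25 of the 49 genes and the treated one that of 19, against 3 for treated and 2 for untreated scramble cells. This tally was not taken over all tested genes.

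Knockdown of TCF7 went with slightly higher levels of most members and with a larger rise of 3: MCM6, GINS4 and TK1. A change was called when the adjusted p of edgeR fell under 0.05 in a fit of both factors over all 4 libraries. Of all tested genes 3.8% rose with knockdown and 3.34% fell, while of the members 3 of 49 (6.12%) rose and 0 fell. At an unadjusted p under 0.05 the same test had 11 members higher and 1 lower, a count not taken over all genes. Both DESeq2 and limma, the latter on log2 of the deposited FPKM plus 0.1, called 1 member higher and 0 lower. Over all genes DESeq2 called 0.963% higher and 1.08% lower, and limma 0.662% and 0.805%. Because a bulk library sums over cells, a larger share of cells in S phase and more RNA per cell cannot be told apart in any of these values. The labels do not say that cultures were infected or treated separately, and with 1 library per group no spread between like libraries could be measured. In the edgeR fit the 1 residual degree of freedom per gene is the difference of the knockdown effect between imatinib states. It was pooled with 33.79 prior degrees of freedom drawn from all tested genes. The p-values therefore do not cover variation between cultures.

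MCM6, a subunit of the helicase ring on chromosome 2 (GRCh38, 135839626 to 135876426, minus strand), had 219, 309.6, 208 and 282 CPM. Both knockdown libraries were above both scramble libraries. The log2 ratio of knockdown to scramble was 0.51 without imatinib, with a 95% counting interval of 0.46 to 0.55, and 0.46 under imatinib (0.41 to 0.50). Such intervals are exact binomial ones on the counts of a pair and cover counting error only. In the fit MCM6 rose by 0.48 (SE 0.0699, edgeR adjusted p = 7.84e-06), and it was the member that DESeq2 (adjusted p = 6.19e-06) and limma (0.0246) also called.

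GINS4, a subunit of the GINS complex, had 33.8, 44.8, 39.8 and 49.8 CPM. Again both knockdown libraries were the higher ones. Its log2 ratios were 0.41 (0.30 to 0.53) and 0.34 (0.24 to 0.45), and it rose by 0.38 (SE 0.0955, edgeR adjusted p = 0.00946), but not in DESeq2 (0.168) or limma (0.127).

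TK1, on chromosome 17 (GRCh38, 78174075 to 78187233, minus strand), had 42.2, 51.0, 51.9 and 63.2 CPM. Here the knockdown library without imatinib lay below the scramble library with imatinib, so the groups overlapped unless compared within an imatinib state. The log2 ratios were 0.28 (0.18 to 0.39) and 0.30 (0.21 to 0.40), and TK1 rose by 0.29 (SE 0.0894, edgeR adjusted p = 0.0373). The call was lost in DESeq2 (0.367), in limma (0.0995) and without the filter on low counts (0.0592).

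The GC content and length of transcripts go with the ratios between these libraries, as shown for imatinib below. With offsets for both in the fit, 6 members rose with knockdown (12.2%, against 6.76% of all genes so tested) and 0 fell (5.56%). The 3 further genes were PCNA, RRM2 and CCNE2. PCNA had 233, 272, 222 and 242 CPM (log2 fold change 0.19, edgeR adjusted p = 0.107; with offsets 0.17 and 0.0384). RRM2, the small subunit of ribonucleotide reductase, had 320.2, 377, 303 and 333 CPM (0.20 and 0.0791; with offsets 0.20 and 0.0127). CCNE2, a cyclin E gene, had 34.9, 41.4, 33.9 and 38.8 CPM (0.23 and 0.166; with offsets 0.24 and 0.044), and it overlaps INTS8 and NDUFAF6 on the opposite strand. In each of these genes the knockdown library was above its scramble partner, by small amounts. They were picked by a fit over these same libraries, so this is no separate support.

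Across the list, 44 of 49 members were above scramble in the knockdown library without imatinib and 36 of 49 under imatinib. Of all 13296 tested genes, 6648 and 7101 were. The median log2 ratio was 0.11 and 0.08, against 0.00 and 0.02 over all tested genes. In 34 members (69.4%) the ratio was above 0 in both pairs, which share no library, against 32.9% of all tested genes. In 3 members (6.12%) it was below 0 in both, against 29.5%. With the trend on GC content and length removed, 33 members were above 0 in both pairs and 5 below, against 34.2% and 30.6% of all genes, and the medians were 0.09 and 0.05. The sizes were small: 44 members lay within 0.32 of 0 on the log2 scale in both pairs (63.4% of all tested genes did). Past 0.32 in either direction, 4 members were higher and 0 lower without imatinib, against 9.63% and 12.8% of all tested genes, and 3 were higher and 0 lower under it, against 15.3% and 11.3%. These shares were not matched for level: the lowest mean CPM was 15.3 among the members and 0.66 among all tested genes. The counting interval lay above 0 in 30 members and below it in 2 without imatinib, and above in 25 and below in 9 under it. These interval counts were not taken over all tested genes, so they have no background to be read against.

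**Figure D2:**
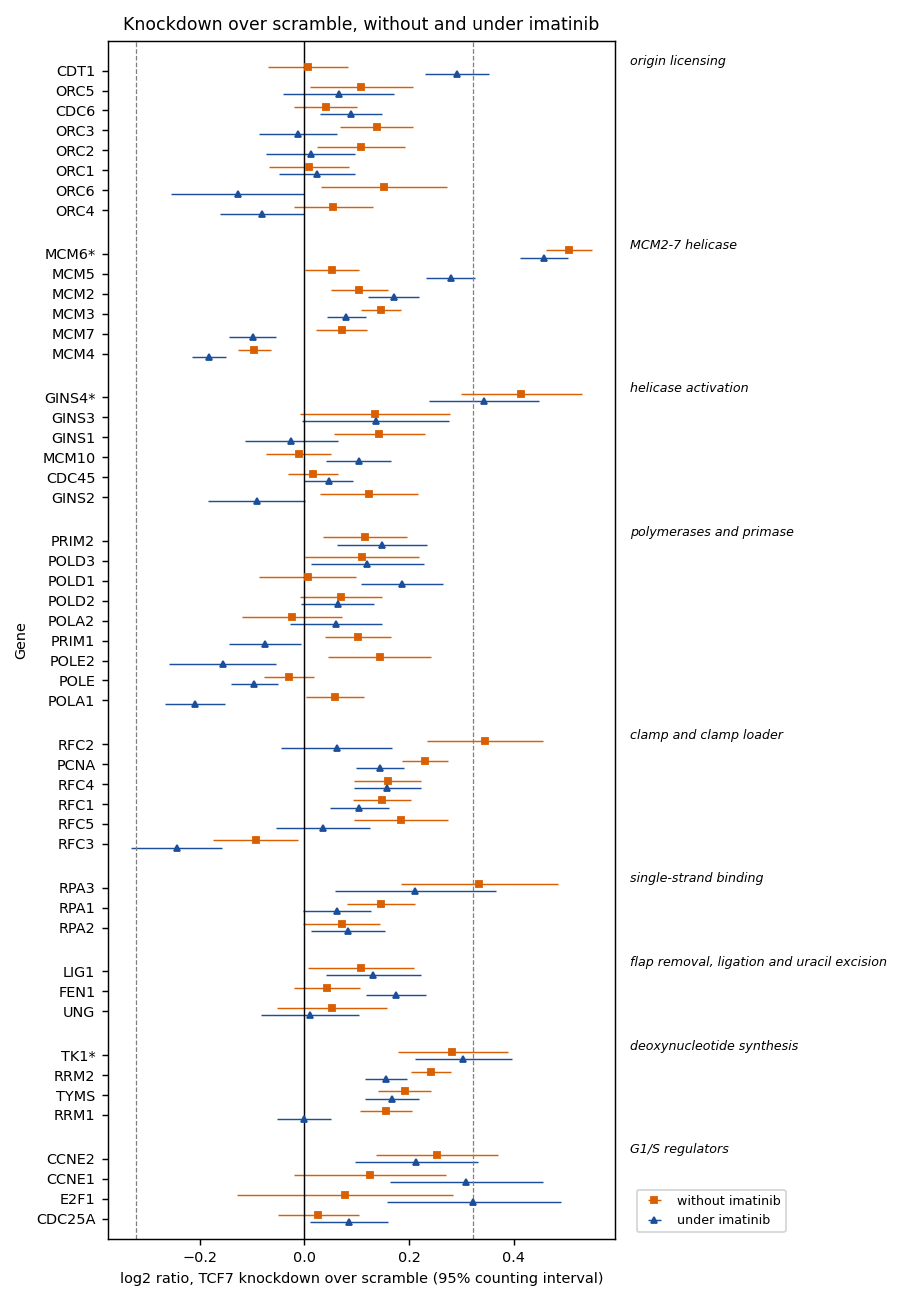
Log2 ratio of TCF7 knockdown over scramble for each of the 49 genes, without imatinib (squares) and under it (triangles), with 95% exact binomial counting intervals, dashed lines at 0.32 either side of 0 and asterisks on the 3 genes called by edgeR. Most points lie right of 0, MCM6 lies farthest right in both pairs at 0.51 and 0.46, and MCM4 and RFC3 lie left of 0 in both.

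By role, counts are read beside all tested genes, of which 6648 and 7101 of 13296 were above scramble without and under imatinib. The roles hold few genes, so counts near that share, such as 5 of 9 under imatinib, are not read as results about a role. All 8 licensing genes were above scramble without imatinib and 5 of 8 under it, with 0 called. CDC6, which loads the helicase, had ratios of 0.04 and 0.09, and ORC1, the largest subunit of the origin complex, 0.01 and 0.02. The helicase subunits, which the ring holds in equal numbers, differed among themselves. MCM3 had ratios of 0.15 and 0.08, MCM2 0.11 and 0.17, MCM5 0.05 and 0.28, and MCM7 0.07 and -0.10. MCM4 had 519, 483, 504 and 438 CPM, lower in each knockdown library, with ratios of -0.10 and -0.18 (edgeR adjusted p = 0.266). MCM6 and MCM4 thus lay at the opposite ends of the helicase list in both pairs.

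Of the 6 activating factors 5 were above scramble without imatinib and 4 under it, and besides GINS4 none was called (0 of the other 5). CDC45 had 222, 223, 219.8 and 224 CPM, the flattest profile of all members. In the polymerase and primase group 7 of 9 were above scramble without imatinib and 5 of 9 under it, with 0 called, and POLE, the catalytic subunit of polymerase epsilon, was below in both pairs (-0.03 and -0.10). In the clamp and clamp loader group 5 of 6 were above scramble in each pair, with 0 called. The exception was RFC3 of the loader, with 80.4, 74.9, 72.4 and 60.3 CPM and ratios of -0.09 and -0.24 (edgeR adjusted p = 0.256), while RFC4 had 0.16 in both pairs.

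All 3 single-strand binding subunits were above scramble in both pairs, RPA3 by 0.33 and 0.21, RPA1 by 0.15 and 0.06 and RPA2 by 0.07 and 0.08, with 0 called. RPA3 overlaps UMAD1 on the opposite strand. FEN1, LIG1 and UNG, the uracil glycosylase, were above scramble by 0.01 to 0.17 in both pairs, with 0 called. The deoxynucleotide group had the highest median of the 9 roles without imatinib, 0.22, and 0.16 under it, with TK1 called, RRM2 at 0.24 and 0.16, TYMS at 0.19 and 0.17, and RRM1, the large reductase subunit, at 0.16 and -0.00. Of the G1/S regulators, CCNE1 had ratios of 0.13 and 0.31 and E2F1 0.08 and 0.32, with 0 of 4 called.

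**Figure D3:**
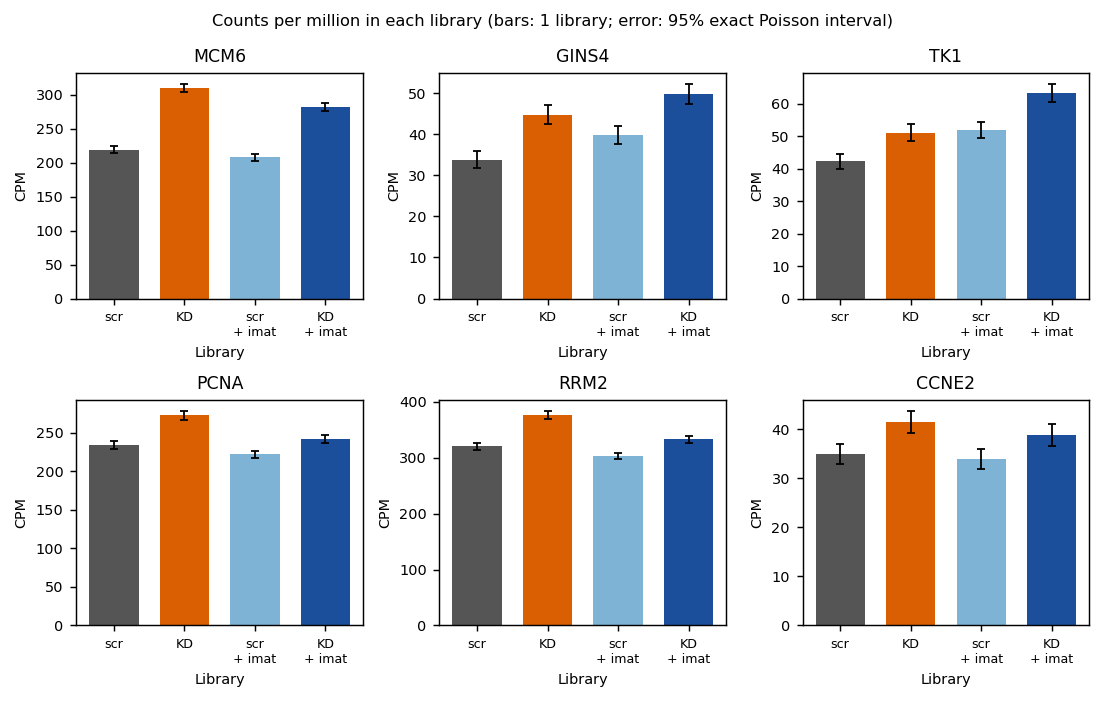
CPM of the 3 genes called for knockdown (MCM6, GINS4 and TK1) and of the 3 more called with GC and length offsets (PCNA, RRM2 and CCNE2), 1 panel per gene and 1 bar per library, with 95% exact Poisson intervals for counting error and each axis starting at 0. In every panel each knockdown library stands above its scramble partner, most clearly for MCM6 at 309.6 against 219 and 282 against 208. The genes were picked by fits over these same libraries, which favours such a picture.

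Other genes of the same processes were listed beside the members. Of 32 other replication factors tested, 1 rose with knockdown and 0 fell, with median ratios of 0.06 and 0.07. The gene was RNASEH2A, the catalytic subunit of the enzyme that removes ribonucleotides from DNA, with 39.4, 53.3, 43.3 and 62.9 CPM and ratios of 0.44 and 0.56 (edgeR adjusted p = 0.000264). Of 14 other nucleotide enzymes and transporters, 2 rose and 0 fell, among them SLC29A1, the nucleoside transporter ENT1, with 125, 166, 134 and 177 CPM (0.42 in both pairs, edgeR adjusted p = 0.000133). Of 9 chromatin assembly genes of S phase 1 rose, the histone chaperone ASF1B (0.35 and 0.38, edgeR adjusted p = 0.0162).

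Of 25 G1/S control genes, 4 rose with knockdown and 1 fell. The median ratios of this list were 0.01 and 0.00, with 14 and 13 of the 25 above scramble. All tested genes had medians of 0.00 and 0.02, so the small rise of the members was not seen in this list. CCND2, the cyclin D2 gene, had 214, 157, 237 and 150.0 CPM and fell, with ratios of -0.44 and -0.64 (edgeR adjusted p = 1.99e-06). TFDP2, a dimer partner of E2F factors, rose (0.36 and 0.28, edgeR adjusted p = 0.00245), as did CDKN2C, an inhibitor of CDK4 and CDK6 (0.40 and 0.59, 0.00436). CDKN1B, the inhibitor p27, rose (0.46 and 0.25, edgeR adjusted p = 0.0285), as did CDK2, the kinase partner of cyclin E (0.25 and 0.27, 0.0375). The changed genes of this list thus include kinase inhibitors and a cyclin that moved in opposite directions. Of 23 mitosis genes tested, 0 rose and 1 fell, the checkpoint kinase BUB1 with 342, 302, 301 and 234 CPM (-0.17 and -0.35, edgeR adjusted p = 0.0182), and the medians were 0.12 and 0.01.

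Imatinib went with higher levels of 10 members and lower levels of 5, and the medians over the list stayed near 0. Of all tested genes 13.8% rose with imatinib and 7.08% fell, and of the members 10 (20.4%) rose and 5 (10.2%) fell. Scramble cells gave a median log2 ratio of -0.01 and knockdown cells -0.06, against -0.01 and 0.01 over all tested genes. In 18 members (36.7%) both imatinib ratios were above 0 and in 23 (46.9%) below, against 36.9% and 37.5% of all tested genes. Past 0.32 on the log2 scale 3 members were higher and 0 lower in scramble cells, against 14.6% and 7.8%, and 4 were higher and 2 lower in knockdown cells, against 25.1% and 12.9%. Here too the shares were not matched for level. With the GC and length offsets, 0 members rose and 0 fell, against 2.12% and 2.23% of all genes so tested. An unadjusted p under 0.05 in that edgeR fit was found for 5 members, a count not taken over all genes.

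CDT1, the licensing factor, on chromosome 16 (GRCh38, 88803213 to 88809258, plus strand), had 87.7, 87.7, 119 and 143 CPM. Both imatinib libraries were above both others, the knockdown library the most. The log2 ratios of imatinib to none were 0.42 in scramble and 0.71 in knockdown cells, and CDT1 rose by 0.56 (SE 0.0789, edgeR adjusted p = 4.32e-06). With the offsets the change was 0.02 (adjusted p = 0.929). E2F1, on chromosome 20 (33675683 to 33686404, minus strand), had 12.0, 12.6, 16.5 and 20.3 CPM and ratios of 0.44 and 0.69, and rose by 0.57 (SE 0.14, edgeR adjusted p = 0.00383). With the offsets it had 0.11 (adjusted p = 0.733).

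POLD1, the catalytic subunit of polymerase delta, had 59.2, 59.1, 75.2 and 84.5 CPM and rose by 0.42 (edgeR adjusted p = 0.000454). Its partner POLD2 had 81.9, 85.5, 102 and 105 CPM and rose by 0.29 (0.00646 in edgeR). Both had each imatinib library above both others. With the offsets, however, their values were -0.12 (SE 0.071) and -0.03 (SE 0.066), and neither was called. TK1, whose CPM are given above, had imatinib ratios of 0.28 and 0.30 and rose by 0.29 (edgeR adjusted p = 0.0174), with -0.16 under the offsets.

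MCM2 had 165, 176, 196 and 217 CPM and rose by 0.26 (edgeR adjusted p = 0.00777), and MCM5 had 187, 192, 204 and 244 CPM and rose by 0.23 (0.0237 in edgeR). Each had -0.03 under the offsets. UNG had 45.4, 46.8, 56.7 and 56.4 CPM and rose by 0.28 (edgeR adjusted p = 0.0216), with 0.21 under the offsets (adjusted p = 0.0948). LIG1 had 48.5, 52.0, 58.6 and 63.3 CPM (0.27, edgeR adjusted p = 0.0266), and FEN1 had 126, 129, 140.4 and 156 CPM (0.21, edgeR adjusted p = 0.0372). All 3 genes of flap removal, ligation and uracil excision thus rose, with every imatinib library above every other. The fit that called them uses these same libraries. Of the 1839 genes that rose, 1832 were above their untreated partner in scramble cells and 1839 in knockdown cells. With the offsets LIG1 had 0.029 and FEN1 0.058, and 0 of the 3 were called.

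Of the genes that fell, PRIM1 had 123, 131, 109.9 and 103 CPM (log2 fold change -0.26, edgeR adjusted p = 0.0125) and PRIM2, the other primase subunit, 75.9, 81.8, 65.1 and 71.2 CPM (-0.22, 0.0487 in edgeR). PRIM2 has near-identical copies in the genome, which makes its counts uncertain. ORC3 had 101, 110.4, 90.5 and 88.5 CPM (-0.25, edgeR adjusted p = 0.021) and ORC4, another subunit of the origin complex, 88.4, 91.3, 79.7 and 74.3 CPM (-0.23, 0.0337 in edgeR). ORC4 overlaps ACVR2A and MBD5 on the opposite strand. RFC3 fell by 0.24 on the log2 scale (edgeR adjusted p = 0.0351). In all 5 genes each imatinib library was below its untreated partner. The fit that picked them uses these same libraries, and the same held for all 941 genes that fell.

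GC content moved with these values. The 10 members that rose had a median transcript GC content of 58.6% (50.7% to 65.0%) and the 5 that fell 39.4% (37.7% to 41.6%), and all 49 had 47.9%. Over all tested genes the medians were much the same, at 60.2% for those that rose, 39.7% for those that fell and 47.3% for all. The split is thus not particular to the members. Across the 49 genes, which share their libraries, Spearman's rho between GC content and the imatinib ratio was 0.77 in scramble and 0.80 in knockdown cells, against 0.57 and 0.66 over all tested genes. For the knockdown ratio it was -0.26 without imatinib and 0.31 under it, against -0.09 and 0.29. The part of GC content in the imatinib calls was not tested beyond the fit with offsets.

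**Figure D4:**
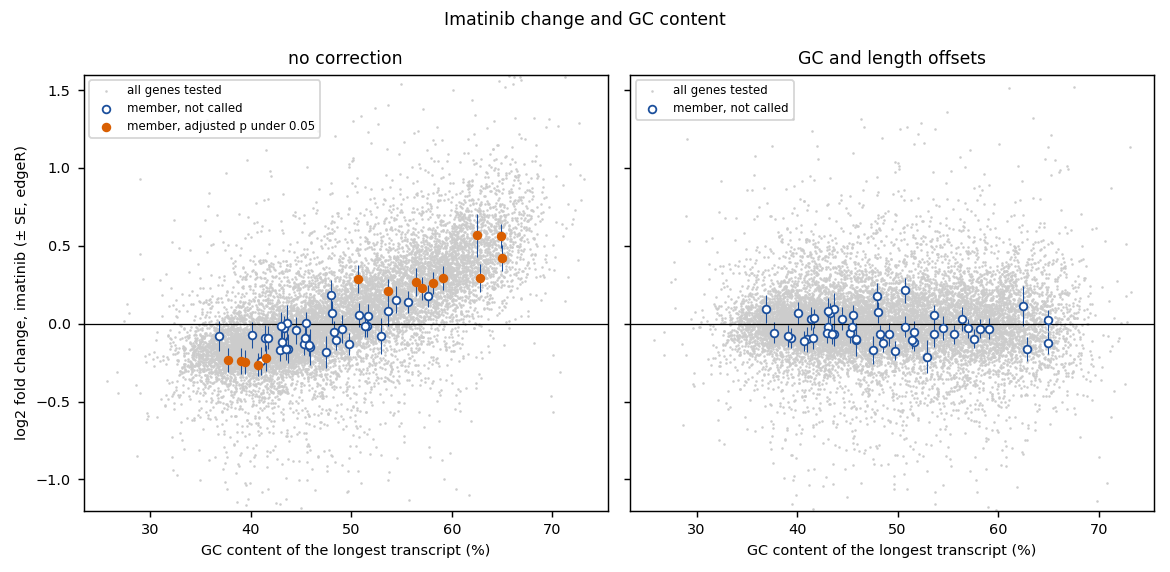
Imatinib log2 fold change of edgeR against transcript GC content in percent, for all tested genes (grey) and the 49 members (coloured), without offsets on the left and with GC and length offsets on the right. The vertical axis runs from -1.2 to 1.6, beyond which 18 and 13 of the 13255 genes lie. On the left the members climb with GC content from PRIM1 and ORC4 to CDT1 and POLD1, and on the right they lie around 0.

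Of other replication factors 6 rose with imatinib and 4 fell, of G1/S control genes 4 rose and 3 fell, of chromatin assembly genes 2 rose and 0 fell, and of nucleotide enzymes 1 rose and 0 fell. Of mitosis genes 1 rose and 7 fell, with a median of -0.06 for scramble cells and of -0.22 for knockdown cells. Of all tested genes 1839 rose and 941 fell. With the offsets other replication factors and G1/S control genes had 1 rise and 0 falls each, and the chromatin assembly, nucleotide and mitosis lists had 0 calls, against 281 rises and 296 falls over all genes. The median of the members was -0.06 in knockdown cells. With the trend on GC content and length removed, the mitosis median in knockdown cells was -0.09 and that of the members -0.07.

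The knockdown ratio was the higher one without imatinib in 30 of the 49 members, a count not taken over all tested genes. The median difference, under minus without, was -0.04, against 0.02 over all tested genes. With 1 library per group no test of this difference was possible. The largest was that of POLE2, a subunit of polymerase epsilon, with 50.4, 55.4, 50.5 and 44.8 CPM and ratios of 0.14 and -0.16. CDT1 had the largest in the other direction, with ratios of 0.01 without and 0.29 under imatinib. With the GC and length trend removed these 2 ratios were 0.09 and 0.13, while those of POLE2 stayed apart at 0.11 and -0.15. RFC2 of the clamp loader had 36.7, 46.3, 43.3 and 44.6 CPM (0.34 and 0.06), and ORC6 had 33.6, 37.1, 33.0 and 29.8 CPM (0.15 and -0.13). In RFC2 the untreated scramble library stood low, and in ORC6 the knockdown library with imatinib did.

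In the knockdown library with imatinib against the untreated scramble library, the median ratio of the members was 0.07, against 0.01 over all tested genes. E2F1 (0.76), CDT1 (0.71), TK1 (0.59) and GINS4 (0.56) had the highest ratios, and RFC3 (-0.41) the lowest. The first 3 have transcript GC contents of 62.5%, 64.9% and 62.8%, and GINS4 47.9%. With the GC and length trend removed these ratios were 0.27 for E2F1, 0.14 for CDT1, 0.09 for TK1 and 0.56 for GINS4. The highest were then those of GINS4 and MCM6 (0.47), and MCM4 and RFC3 were the lowest, both at -0.25.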

How the data were processed

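The labels give 1 library of rRNA-depleted RNA per group, made with a directional kit. The submitters' processing notes name FastQC, HISAT2, HTSeq 0.6.1 and GRCh38 and give no annotation release or strand setting. Per the file headers, the deposited table lists counts and FPKM values for every library. The deposited counts were used as they are. The deposited FPKM columns are treated as a score, since 6 genes have negative values, and served for levels between genes and for limma on log2(FPKM + 0.1). IDs were matched to GENCODE 29 for positions, GC content and length (28329 of 28482 genes).

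The filter asked for a CPM of at least 1 in any 2 libraries and passed 13296 genes; TMM factors lay between 0.9938 and 1.01. Ratios were taken after TMM scaling, with a prior count of 2. For knockdown and imatinib, edgeR 4.0.16 in R 4.3.3 gave quasi-likelihood tests from an additive fit over 4 libraries, with 1 residual and 33.79 prior degrees of freedom, a common biological coefficient of variation of 0.0783 and Benjamini-Hochberg adjustment over all tested genes at 0.05. Offsets on GC content and length came from smooth trends of mgcv 1.9.3 over 13255 genes. DESeq2 1.42.0, limma 3.58.1, other scalings, filters and left-out libraries were alternatives.

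The members, lists and tests were chosen with earlier results of these data known. Per-library values are given for every called member, the 4 members whose knockdown ratio differed most with imatinib, the highest and lowest FPKM of each role, and TCF7; of each related list up to 4 called genes are named. GC-offset calls, MCM4, POLE and the other role examples were named after their values were seen. Counting intervals, at 95%, take reads as independent, which PCR copies are not. The values of 1 called gene of a related list are not reported here.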

Additional observations from a re-analysis of the deposited data

Results flagged for a closer look

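For 5 members the counting intervals of the knockdown ratio lay on opposite sides of 0 without and under imatinib. The difference was not tested, since each ratio rests on 1 library per group. How many of all tested genes did the same was not counted, so the 5 are not read as particular to the members. ORC6 of the origin complex had 0.15 without imatinib and -0.13 under it. MCM7 of the helicase had 0.07 and -0.10. Among the polymerase genes, POLA1, the catalytic subunit of polymerase alpha, had 0.06 and -0.21, PRIM1 0.10 and -0.08, and POLE2 0.14 and -0.16. In all 5 the ratio was the higher one without imatinib. MCM7, POLA1 and PRIM1 overlap other genes of the table.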

How the results depend on the processing

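Each library is the only one of its group. The members' counting intervals have a median half-width of 0.07 to 0.08 on the log2 scale and do not cover variation between cultures. No replicate block could be fitted, since the labels carry no replicate numbers; the fit compares knockdown and scramble within each imatinib state. Members rising with knockdown numbered 3, but 6 with GC and length offsets, 1 with DESeq2, 1 with limma, 0 without imatinib in the fit (0 over all genes too) and 0 to 2 with 1 library left out and the other factor dropped (0 without either scramble library, 2 without the untreated and 1 without the treated knockdown library, where 15, 22, 505 and 91 of all genes rose without untreated scramble, treated scramble, untreated and treated knockdown), where the lone library is assumed to vary like the others. Members falling with knockdown numbered 0 under every alternative run. Members rising with imatinib numbered 10, but 0 with the offsets, 0 without knockdown in the fit (0 over all genes too), 3 with DESeq2 (762 over all genes) and 0 to 2 with 1 library left out (2, and 502 over all genes, without the treated scramble library, 0 and 0 otherwise). Members falling with it numbered 5, but 2 without the filter and 0 with the offsets, DESeq2 (241 over all genes), limma (177), knockdown dropped (0) or 1 library left out (0 to 77). With the offsets the imatinib changes of MCM2 (-0.033, SE 0.061), MCM5 (-0.029, SE 0.061) and POLD2 (-0.032, SE 0.066) lay near 0. Those of POLD1 (-0.12, SE 0.071) and TK1 (-0.16, SE 0.078) were below 0, but not called. The TCF7 fold change without imatinib in the fit was -1.74 (adjusted p = 0.0987). The cause of these shifts was not tested. The members' median knockdown ratio stayed above 0 under all 7 alternatives for ratios, and their imatinib median in scramble cells stayed within 0.02 of 0.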

Other observations

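Values of the genes beside the members that rose with knockdown varied. For the 10 nearest genes with a mean CPM of 5 or more, 5 on each side and chosen after the values were seen, the median knockdown ratios without and under imatinib were 0.06 and -0.02 around MCM6, -0.06 and -0.05 around GINS4, and -0.17 and -0.02 around TK1. Single neighbours reached 0.47 and 0.80 around MCM6, of which 1 rose, 0.30 and 0.34 around GINS4, of which 1 fell, and 0.17 and 0.23 around TK1, of which 1 fell. The ratios of the members themselves were 0.51 and 0.46, 0.41 and 0.34, and 0.28 and 0.30. TK1 has no match to the E2F letters TTTNNCGC in either of its RefSeq promoter windows.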
